A study of Mus musculus with 6 samples.

Results

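Genes of antigen presentation by MHC class I and class II molecules were examined in the medial prefrontal cortex (mPFC) of *Shank3* transgenic (TG) mice. The group held 10 genes of the 18254 in the deposited table of normalized read counts. They were chosen by symbol, 7 of class II (*Cd74*, *H2-Aa*, *H2-Ab1*, *H2-Eb1*, *H2-DMa*, *H2-DMb1* and *Ciita*) and 3 of class I (*B2m*, *H2-K1* and *H2-D1*), and their Ensembl identifiers were matched to these symbols in GENCODE. All 10 were in the table, and all 10 passed the filter on low values, which asked for an average of 5 normalized counts or more.

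The mice were males aged 10 to 12 weeks on a C57BL/6J background, either wild-type (WT) or carrying a transgene that overexpresses *Shank3*, the postsynaptic scaffolding protein. Each genotype had 3 RNA-seq libraries, every one prepared from the combined mPFC of a pair of mice, and replicates are therefore pools of animals. The promoter that drives the transgene is not given in the sources used here. Normalized counts summed to between 28363967 and 29447717 per library. *Shank3* itself checked the labels, with 17470, 19003 and 16310 normalized counts in TG-1, TG-2 and TG-3 against 8374, 8173 and 6791 in WT-1, WT-2 and WT-3. Both libraries numbered 3 stood apart from the others, and the deviations of TG-3 and WT-3 from their genotype means correlated across genes at 0.62. Because TG-3 also held the highest value of several members, results are given with and without it where it matters.

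MHC class I molecules consist of a heavy chain and beta-2 microglobulin and show peptides made inside the cell to CD8+ T cells, and nearly every cell type carries them at some level. MHC class II molecules consist of an alpha and a beta chain, are assembled on the invariant chain *Cd74* and show peptides from the endocytic pathway to CD4+ T cells. Class II expression is largely restricted to professional antigen-presenting cells. In the healthy brain it is found mainly on macrophages and dendritic cells at the borders, in the meninges, perivascular spaces and choroid plexus, and is low in resting microglia.

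Transcription of class II genes depends on short promoter elements that bind the RFX and NF-Y complexes and recruit the coactivator *Ciita*, while class I promoters carry, in addition, an element bound by interferon regulatory factors. RefSeq promoter windows, from 250 bases before to 50 after an annotated start site on GRCm38.p6, were at hand for 7 of the 10 members. None was at hand for *Cd74*, *H2-Ab1* and *Ciita*. The windows were searched on both strands for the letters TGATTGG, the class II Y box with its inverted CCAAT core, and for AANNGAAA, the core of an interferon-stimulated element. Windows of a pair of class II genes are shown beside those of a pair of class I genes to let the layout of both kinds be compared. Each line runs from 170 to 11 bases before the start site and is read on the gene's own strand, with matches to either motif in capitals. The stretches are chr17:34287834-34287993 (minus strand) for *H2-Aa*, chr17:34305697-34305856 (plus strand) for *H2-Eb1*, chr2:122147517-122147676 (plus strand) for *B2m* and chr17:34000358-34000517 (minus strand) for *H2-K1*.
H2-Aa: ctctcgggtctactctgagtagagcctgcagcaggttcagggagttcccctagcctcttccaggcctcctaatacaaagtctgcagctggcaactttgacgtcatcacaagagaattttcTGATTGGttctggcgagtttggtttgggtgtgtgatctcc
H2-Eb1: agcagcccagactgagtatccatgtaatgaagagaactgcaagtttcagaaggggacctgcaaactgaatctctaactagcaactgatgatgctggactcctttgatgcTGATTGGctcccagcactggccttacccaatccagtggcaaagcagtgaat
B2m: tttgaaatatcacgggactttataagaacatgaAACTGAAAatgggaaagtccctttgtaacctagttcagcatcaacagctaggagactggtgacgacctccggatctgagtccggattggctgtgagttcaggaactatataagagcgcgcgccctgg
H2-K1: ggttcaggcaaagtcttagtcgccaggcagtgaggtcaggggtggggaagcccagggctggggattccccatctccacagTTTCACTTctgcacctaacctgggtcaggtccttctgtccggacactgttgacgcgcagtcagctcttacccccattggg

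The letters TGATTGG began 50 bases before the start site in *H2-Aa*, 61 before it in *H2-Eb1* and 63 before it in *H2-DMb1*, each on the gene's own strand. *H2-D1* had them on the opposite strand 53 bases before its start, and *H2-K1* held them on the opposite strand too, 9 bases after the first of its annotated starts. *B2m* had only the shorter core ATTGG, which lies inside TGATTGG, 53 bases before the start. Neither window of *H2-DMa* held TGATTGG. The interferon letters stood 137 bases before the start in *B2m*, 90 before the first start in *H2-K1* (on the opposite strand) and 150 before the start in *H2-D1* (on the opposite strand). In *H2-Aa* they lay further out, at 213 bases, a window of *H2-DMa* had them within a run of T at 25 bases (on the opposite strand), and neither *H2-Eb1* nor *H2-DMb1* held them. Over all 32851 promoter windows, 7.82% held TGATTGG, 37.4% held ATTGG and 23.9% held AANNGAAA, so that a match is a description of the letters and not of binding.

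Levels of the members were compared per kilobase of the union of their exons, since a longer transcript yields more reads. In WT, class I genes led: *B2m* stood at 2221 ± 207 normalized counts per kb (SD, n = 3), *H2-D1* at 366 ± 38.0 and *H2-K1* at 196 ± 26.7. The most abundant class II members were *H2-DMa* at 84.7 ± 6.19 and *Cd74* at 61.0 ± 1.42 per kb. *H2-Eb1* (19.5 ± 1.42), *H2-DMb1* (14.3 ± 3.57), *H2-Ab1* (13.6 ± 1.67) and *H2-Aa* (10.2 ± 1.72) followed, and *Ciita* was lowest at 6.87 ± 1.04 per kb. The WT ranges of *H2-Eb1* and *H2-DMb1* overlapped, as did those of *H2-DMb1* and *H2-Ab1* and those of *H2-Ab1* and *H2-Aa*, so the order among these neighbours is not resolved. All other neighbours in the order had separate ranges. In TG, *Cd74* reached 102 ± 33.6 per kb and *H2-DMa* 94.4 ± 8.27, with overlapping ranges.

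**Figure D1:**
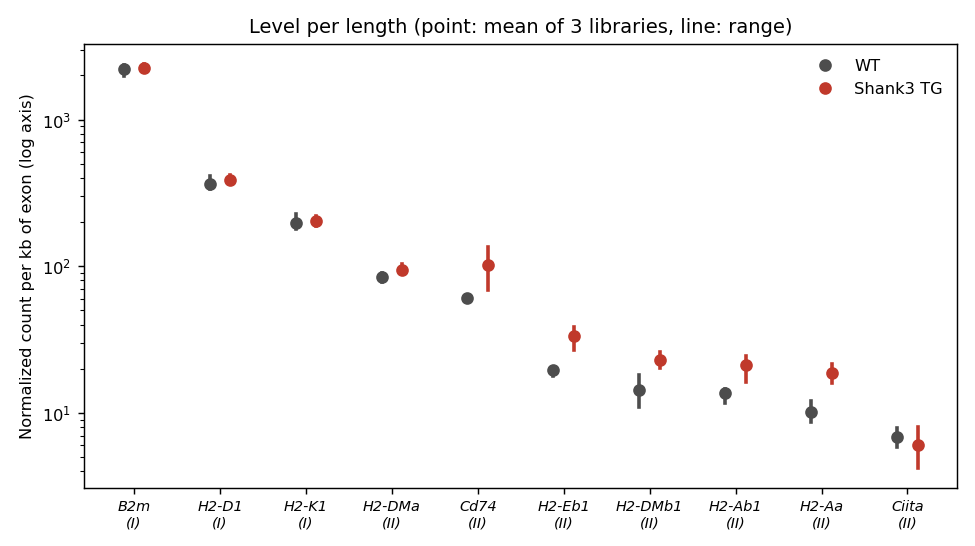
Normalized counts per kb of exon on a log axis for the 10 members, ordered by the WT mean. Points are means of 3 libraries and lines run from the lowest to the highest library, and the class I genes lie above every class II gene in both genotypes.

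How the members differed between genotypes was the main question, with class II read against class I. No member passed an adjusted p of 0.05 in limma on log2(normalized count + 1), and 0% of the 16714 genes tested did (336 had an unadjusted p under 0.05). The transgene *Shank3* itself had an adjusted p of 0.0643 in limma, so a gene that is not called here may still differ. With DESeq2 and an empirical null, the paper called *Shank3* and other genes in mPFC. Every TG library lay above every WT library for 5 of the 7 class II members and for 0 of the 3 class I members, where 2.91% of all tested genes showed this. The same 5 genes had an unadjusted p under 0.05 with a higher TG mean, against 0.933% of all tested genes. This second count was 2 (*H2-Aa* and *H2-Eb1*) without TG-3 or without WT-2 and 3 without TG-2. With 3 libraries on each side, an exact two-sided permutation test of a single gene cannot go below p = 0.1. In bulk tissue, fewer cells of a type and less RNA per cell cannot be told apart, and this holds for each level given here.

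*Cd74* (ENSMUSG00000024610, chr18:60803848-60812652), the invariant chain that fills the class II groove during assembly, had 116, 166 and 229 normalized counts in TG-1, TG-2 and TG-3. In WT it had 101, 101 and 105. The WT libraries were nearly alike, whereas the TG libraries spread from just above them to more than any other library. The log2 fold change was 0.68 ± 0.23 (SE), or 1.60-fold, with an unadjusted p of 0.0209 and an adjusted p of 1.00 in limma. Without TG-3 it was 0.44, with an unadjusted p of 0.0573 in limma.

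*H2-Aa* (ENSMUSG00000036594, chr17:34282744-34287823), the alpha chain of the I-A molecule, stood at 61.0, 69.5 and 82.4 normalized counts in TG-1, TG-2 and TG-3 and at 37.6, 32.7 and 45.6 in WT-1, WT-2 and WT-3. The genotypes did not overlap, and the gap between the lowest TG and the highest WT library was wider than the range within WT. Its log2 fold change was the largest of the members at 0.86 ± 0.21 (SE), or 1.82-fold, with an unadjusted p of 0.00369 and an adjusted p of 1.00 in limma. Under an empirical null, in which z-scores are divided by their observed width, *H2-Aa* had an adjusted p of 0.0479 and was 1 of 26 genes called (0.156% of those tested). Here this division is the more lenient choice, as it took the unadjusted p of *H2-Aa* from 0.00369 to 7.2e-05 in limma. Leaving out TG-3 gave a log2 fold change of 0.75. Over all alternatives its adjusted p in limma ran from 0.0479 to 1.00.

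*H2-Ab1* (ENSMUSG00000073421, chr17:34257689-34269419), the beta chain that pairs with *H2-Aa*, had 42.0, 58.7 and 62.9 normalized counts in TG-1, TG-2 and TG-3. The WT libraries had 37.3, 30.0 and 37.6. TG-1 lay close to the WT libraries and the other two TG libraries well above. The log2 fold change was 0.61 ± 0.23 (SE), with an unadjusted p of 0.0293 and an adjusted p of 1.00 in limma. Without TG-3 it was 0.50, with an unadjusted p of 0.0981 in limma.

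*H2-Eb1* (ENSMUSG00000060586, chr17:34305867-34316674), the beta chain of the I-E molecule, had 66.8, 52.1 and 75.3 normalized counts in TG-1, TG-2 and TG-3 against 38.7, 40.1 and 34.8 in WT-1, WT-2 and WT-3. C57BL/6 mice lack a functional I-E alpha chain, whose gene *H2-Ea-ps* was looked for and was not in the table. The transcript of this beta chain is thus read here without its partner. The genotypes were separate, with TG-2 nearest to WT. Its log2 fold change was 0.74 ± 0.20 (SE), or 1.67-fold, with an unadjusted p of 0.00707 and an adjusted p of 1.00 in limma. Leaving out TG-3 gave 0.63 and an unadjusted p of 0.0297 in limma.

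**Figure D2:**
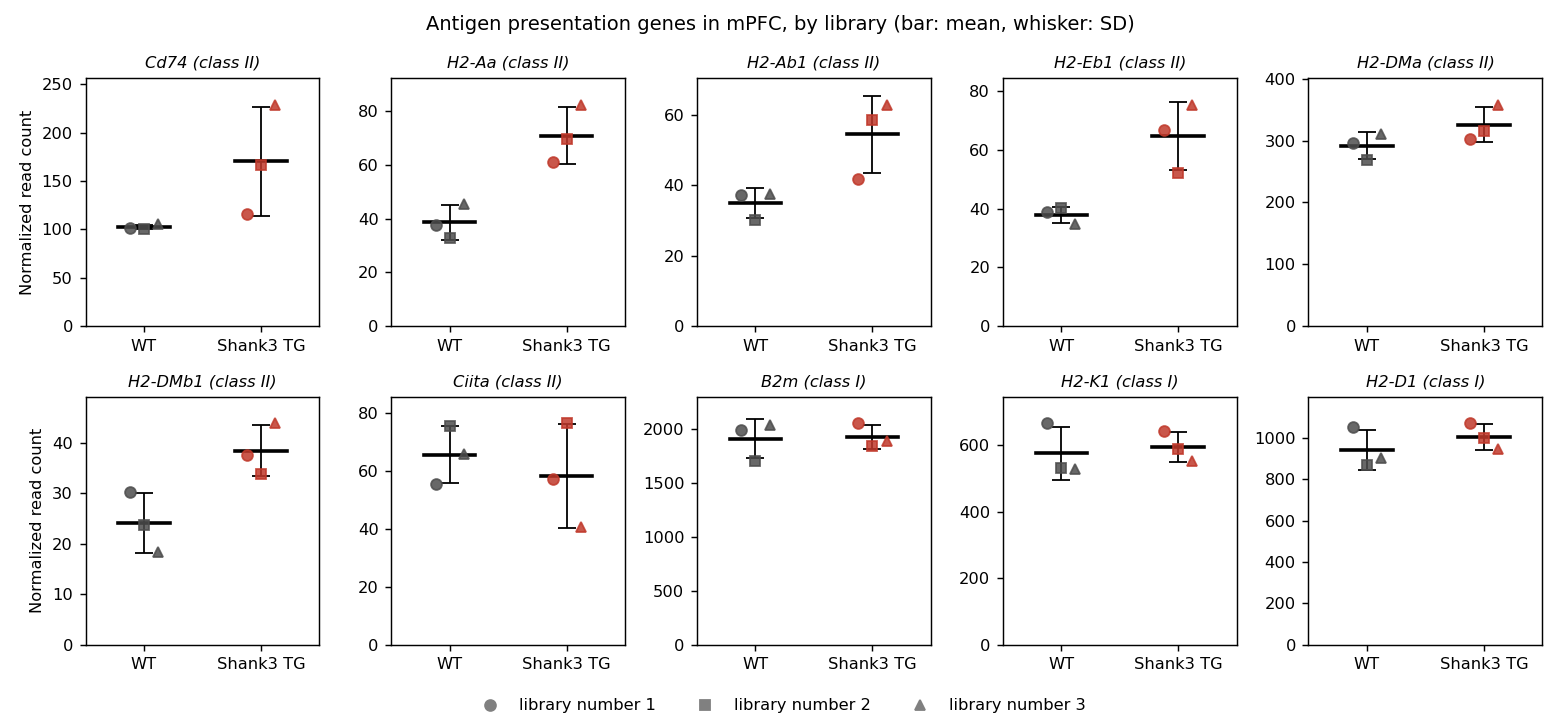
Normalized read counts of each member by library, with the mean (bar) and SD (whisker) of 3 libraries and a symbol for each library number, on axes that start at 0. TG and WT libraries are separate for *Cd74*, *H2-Aa*, *H2-Ab1*, *H2-Eb1* and *H2-DMb1* and overlap for the other members.

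The H2-DM heterodimer removes the invariant chain remnant from class II molecules and edits the peptides they carry. Its beta chain *H2-DMb1* (ENSMUSG00000079547, chr17:34153072-34160230) had 37.6, 33.9 and 43.9 normalized counts in TG-1, TG-2 and TG-3 and 30.3, 23.7 and 18.3 in WT-1, WT-2 and WT-3. The genotypes were separate here too, at a log2 fold change of 0.67 ± 0.26 (SE), with an unadjusted p of 0.0334 and an adjusted p of 1.00 in limma. Leaving out TG-3 gave 0.58 and an unadjusted p of 0.102 in limma. Of its distinct 31-base words, 31.4% also occurred in transcripts of *H2-DMb2*, so reads may be split between the pair. Their sum was 57.6, 46.7 and 104 normalized counts in TG against 42.6, 37.0 and 29.3 in WT, also without overlap, with a log2 fold change of 0.85 ± 0.32 (SE) and an adjusted p of 1.00 in limma, but 0.52 without TG-3. Its alpha chain *H2-DMa* (ENSMUSG00000037649, chr17:34119541-34139101) had 303, 316 and 358 normalized counts in TG and 297, 269 and 311 in WT. These overlapped, since WT-3 exceeded TG-1, and the log2 fold change of 0.16 had a 95% interval from -0.11 to 0.42. It was 0.086 without TG-3 and 0.097 without WT-2.

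*Ciita* (ENSMUSG00000022504, chr16:10480059-10528418), the coactivator that switches class II genes on, had 57.2, 76.2 and 40.4 normalized counts in TG-1, TG-2 and TG-3 and 55.5, 75.2 and 65.7 in WT-1, WT-2 and WT-3. Libraries of the same number were close to each other for numbers 1 and 2, and TG-3 was the lowest of all. The log2 fold change was -0.21 with a 95% interval from -0.81 to 0.39, and without TG-3 it was 0.024. TG-3 was thus the lowest library for *Ciita* and the highest for the other 6 class II members.

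Class I members lay within a narrow band. *B2m* (ENSMUSG00000060802, chr2:122147686-122153083), the light chain shared by class I molecules, had 2051, 1841 and 1892 normalized counts in TG-1, TG-2 and TG-3 and 1992, 1705 and 2032 in WT-1, WT-2 and WT-3. The genotypes overlapped over most of their ranges, with a log2 fold change of 0.016 and a 95% interval from -0.20 to 0.23.

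*H2-K1* (ENSMUSG00000061232, chr17:33996017-34000347), a classical class I heavy chain, had 643, 589 and 554 normalized counts in TG against 666, 532 and 528 in WT. WT-1 was the highest library, and the log2 fold change was 0.055 with a 95% interval from -0.22 to 0.33. *H2-D1* (ENSMUSG00000073411, chr17:35262730-35267499), the other classical heavy chain, had 1071, 999 and 946 in TG against 1055, 870 and 905 in WT, again overlapping, with a log2 fold change of 0.095 and a 95% interval from -0.14 to 0.33. With a library left out it ran from 0.040 (without WT-2) to 0.18 (without WT-1). These heavy chains share sequence: 22.8% of the 31-base words of *H2-K1* and 26.7% of those of *H2-D1* occurred in transcripts of other genes, most often in each other. Their sum, in which a split of reads between them plays no role, was 1714, 1588 and 1500 in TG against 1721, 1403 and 1433 in WT, overlapping as well, with a log2 fold change of 0.080 ± 0.10 (SE).

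Class II was next set against class I within each library. The mean log2(normalized count + 1) of the 7 class II members minus that of the 3 class I members was -3.89, -3.60 and -3.42 in TG-1, TG-2 and TG-3. In WT-1, WT-2 and WT-3 it was -4.20, -3.99 and -4.05. The TG libraries were all nearer to 0, and the genotype means differed by 0.45, with an SD over libraries of 0.24 in TG and 0.10 in WT. By library number the difference was 0.31, 0.40 and 0.63, so that it had the same sign in each pair. With the 4 genes of the presenting chains and *Cd74* alone as class II it was 0.67, and without *Ciita* 0.56. No test was made of this score, because the members were chosen with results of these data known.

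The members also differed in how much they varied within a genotype. *Cd74* had a coefficient of variation of 33.1% in TG and 2.32% in WT, *H2-Eb1* 18.1% and 7.30%, and *Ciita* 30.9% and 15.1%. *H2-Ab1* and *H2-DMa* also varied more in TG. The reverse held for *H2-DMb1*, at 13.1% in TG and 24.9% in WT, and narrowly for *H2-Aa*, at 15.1% and 16.9%. It also held for *B2m*, *H2-K1* and *H2-D1*, which lay between 5.69% and 7.53% in TG and between 9.33% and 13.6% in WT. Across the 3 library numbers, TG exceeded WT in all pairs for *Cd74*, *H2-Aa*, *H2-Ab1*, *H2-Eb1*, *H2-DMa*, *H2-DMb1* and *H2-D1*, and in 2 of 3 for *Ciita*, *B2m* and *H2-K1*. Of all tested genes, 11.6% were higher in TG in each pair.

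Other genes of the class II pathway were split in direction gene by gene. Of 12 listed, 11 were in the table and tested, 6 with a higher and 5 with a lower TG mean, and 0 passed an adjusted p of 0.05 in limma (1 had an unadjusted p under 0.05, with a lower TG mean). Their median log2 fold change was 0.022, against -0.0037 for all tested genes and 0.67 for the class II members. Without TG-3, 8 of 10 tested genes had a higher TG mean, with a median of 0.19. The mean log2 level of the 11 genes was above the WT mean by 0.13, 0.15 and 0.23 in TG-1, TG-2 and TG-3, while the WT libraries lay between -0.018 and 0.014 of it. *H2-DMb2*, a second DM beta chain, had 19.9, 12.7 and 60.5 normalized counts in TG and 12.4, 13.3 and 10.97 in WT, so that TG-3 alone lay far from the rest. *H2-Oa* and *H2-Ob*, the chains of the DM inhibitor H2-O, had log2 fold changes of 0.62 ± 0.40 and 0.53 ± 0.43 (SE), with overlapping libraries and means under 20 normalized counts, and *H2-Eb2* had -0.29 ± 0.60.

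Among the proteases and the thiol reductase that prepare class II peptides, *Ctss*, which degrades the invariant chain, had a log2 fold change of -0.049 ± 0.091 (SE), and *Ifi30* had 0.14 ± 0.16. *Lgmn*, an asparaginyl endopeptidase, had 2436, 2461 and 2435 normalized counts in TG and 2766, 2702 and 2824 in WT. Its TG libraries were all lower, which 3.12% of tested genes showed, and the log2 fold change was -0.18 ± 0.064 (SE) with an unadjusted p of 0.0251 and an adjusted p of 1.00 in limma. The co-stimulatory genes *Cd86*, *Cd80* and *Cd40* had log2 fold changes of 0.022, -0.027 and 0.15, and *March1*, a ligase that removes class II molecules from the surface, had -0.028. The libraries of *Ctss*, *Cd86*, *Cd80*, *Cd40* and *March1* overlapped between genotypes, while *Ifi30* had 91.3, 75.3 and 74.8 in TG against 73.8, 70.9 and 73.8 in WT.

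**Figure D3:**
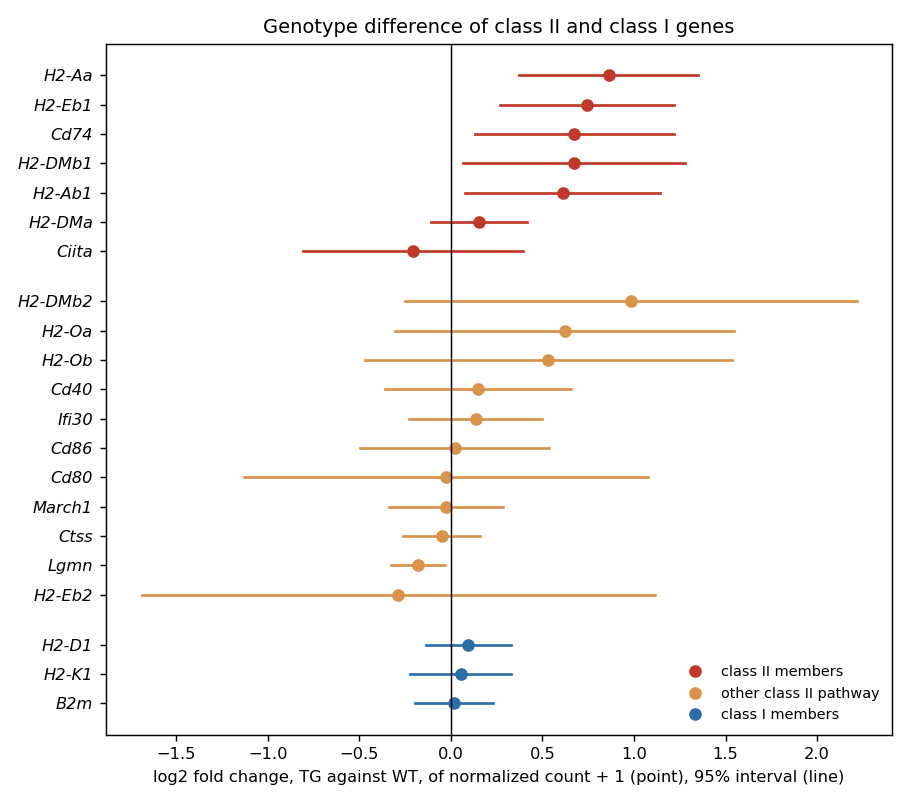
Log2 fold change (TG against WT) of normalized count + 1, with its 95% interval from limma, for class II members, other class II pathway genes and class I members. Intervals of 5 class II members lie above 0, at between 0.61 and 0.86, while those of the class I members are centred between 0.016 and 0.095.

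Genes lying among the class II members on chromosome 17 also had mostly higher TG means (5 of 6), with wide errors. The stretch from *H2-DMa* to *H2-Eb1* (chr17:34119541-34316674, 197 kb) held 13 genes of the table, 5 of them members. The class I pathway genes *Psmb9*, *Tap1*, *Psmb8* and *Tap2* lay between the DM and the presenting class II genes. The 6 tested genes of the stretch that were no members had log2 fold changes with a median of 0.43, from -0.078 (*Tap1*) to 0.98 (*H2-DMb2*). For 0 of them did every TG library exceed every WT library. *Tap2* had 0.14 ± 0.22 (SE), *Psmb9* 0.33 ± 0.30 and *Psmb8* 0.62 ± 0.39, the last with 26.6 normalized counts in WT-2 against 84.4 in WT-1.

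The other class I pathway genes, which include peptide loading genes and further class I and class I-like heavy chains, were tested as 27 genes, of which 12 had a higher and 15 a lower TG mean. None passed the adjusted p in limma and 0 had an unadjusted p under 0.05, and their median log2 fold change was -0.00076, between -0.031 and 0.027 with a library left out. The most abundant, the chaperones *Calr* and *Canx* and the oxidoreductase *Pdia3*, lay at -0.00072, -0.049 and -0.010. *Psmb10*, an immunoproteasome subunit, lay at -0.0013.

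Transcriptional regulators of both classes and of interferon signalling numbered 19, with 5 higher and 14 lower in TG, 0 passing the adjusted p or an unadjusted p of 0.05 in limma, and a median of -0.022 (log2 fold change). Without TG-1 the list had 10 higher and 9 lower. For 2 of the 19 every TG library lay above every WT library (2.91% over all tested genes), and for 0 every TG library lay below (3.12%). Of the factors that bind class II promoters, *Rfx5* lay at -0.10 ± 0.12 (SE), *Nfya* at -0.025 ± 0.13 and *Nfyb* at 0.044 ± 0.098, and *Nlrc5*, the class I counterpart of *Ciita*, at -0.090 ± 0.28. *Jak1*, *Creb1* and *Jak2*, with *Nfyb* the most abundant of the list, had 0.016, -0.14 and -0.018. Most interferon response genes, 20 of 25, had a lower TG mean, with a median of -0.10, and 0 passed the adjusted p and 1 (*Ifit2*) had an unadjusted p under 0.05. On the log2 scale of the list's mean, set to 0 at the WT mean, WT-1, WT-2 and WT-3 stood at -0.058, -0.28 and 0.34, and the TG libraries lay between -0.16 and -0.10, inside the WT range. Without WT-3, 13 of 25 genes had a lower TG mean and the median was -0.0062, so the direction rested on that library.

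**Figure D4:**
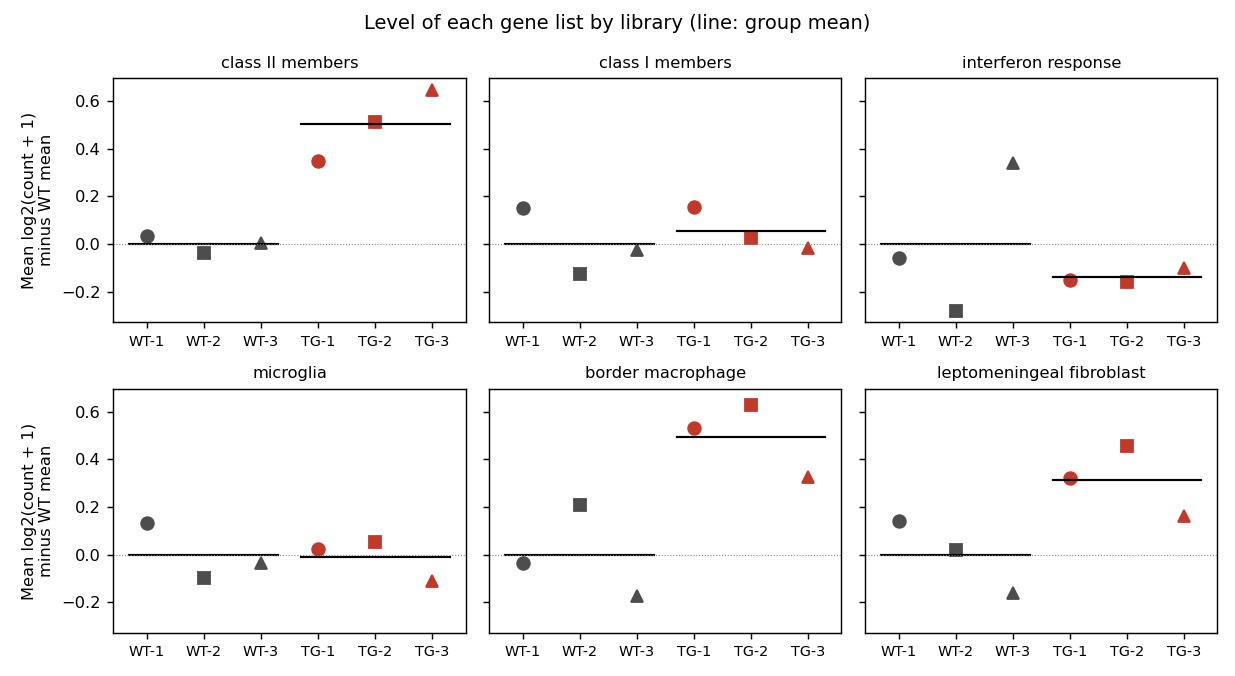
Mean log2(normalized count + 1) of each gene list in each library, minus the WT mean of that list, with a line at each genotype mean. Class II members are above WT in all 3 TG libraries (0.35, 0.51 and 0.65), as are border macrophage and leptomeningeal fibroblast genes, while class I members and microglia genes overlap between genotypes.

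Markers of the cell types that could carry class II were read beside these results. The microglia list (16 of 16 tested) had 7 genes higher and 9 lower in TG, a median log2 fold change of -0.0096 and a summed level from 12552 to 14946 normalized counts in TG and from 13179 to 15897 in WT. *Csf1r*, *Cx3cr1* and *P2ry12*, among its most abundant genes, lay between -0.081 and 0.040. The direction of the list turned with the libraries used, with 13 of 16 genes higher in TG without TG-3 and 14 without WT-1. Set against this sum, *Cd74*, *H2-Aa*, *H2-Ab1* and *H2-Eb1* together gave 1.95, 2.32 and 3.58 normalized counts per 100 of the microglia list in TG-1, TG-2 and TG-3 and 1.35, 1.50 and 1.69 in WT-1, WT-2 and WT-3, without overlap. Class I members gave 25.7, 22.9 and 27.0 in TG and 23.4, 22.9 and 26.3 in WT.

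Border macrophage genes, like class II, had mostly higher TG means. Of 12 tested, 10 were above WT on average, and for 3 every TG library lay above every WT library (2.91% over all tested genes). Their median log2 fold change was 0.29 and their summed level was 1286, 1466 and 1144 in TG-1, TG-2 and TG-3 and 1161, 1067 and 913 in WT-1, WT-2 and WT-3. The most abundant, *Stab1*, *Mrc1*, *F13a1* and *Cd163*, had log2 fold changes of 0.30, 0.26, 0.18 and 0.31, and none passed the adjusted p in limma. The largest were in low genes, chosen after their values were seen: *Ms4a7* had 50.3, 36.4 and 61.4 normalized counts in TG against 18.7, 36.4 and 6.02 in WT, and *Clec4n* was at 0 in WT-3. Per 100 normalized counts of the border macrophage list, the same 4 class II genes gave 22.2, 23.7 and 39.3 in TG and 18.5, 19.1 and 24.5 in WT. These overlapped, with WT-3 above TG-1 and TG-2, and the part of border macrophages in the class II result was not tested.

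Leptomeningeal fibroblast genes, which mark tissue at the brain surface, were higher in TG in 10 of 10 cases, with a median of 0.34 (log2 fold change), 4 with every TG library above every WT library (2.91% over all tested genes) and a summed level from 3596 to 4249 in TG against 3028 to 3576 in WT. Among choroid plexus genes (6 of 8 tested, 4 higher, median 0.50, but 0.0019 without WT-2 and 0.29 without TG-3), *Ttr* had 127, 22.9 and 445 normalized counts in TG-1, TG-2 and TG-3 and 14.3, 12.6 and 41.7 in WT-1, WT-2 and WT-3, so that TG-3, the library with the most class II, also had the most *Ttr*. Their part in the class II result was not tested. Within TG, TG-2 was highest and TG-3 lowest for both the border macrophage and the leptomeningeal sums, an order that *Ciita* shared and the other 6 class II members did not.

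Apart from T and NK cell genes, the direction of the other immune lists turned with single libraries. Dendritic cell genes (7 tested) were higher in 3 and lower in 4, with a median of -0.12 (log2 fold change). *Itgax*, a dendritic cell and activated microglia integrin named after its values were seen, had 10.2, 14.0 and 12.3 normalized counts in TG against 5.62, 7.74 and 6.09 in WT, without overlap. B cell genes (5 tested) had a median of -0.11, T and NK cell genes (4 tested) -0.27 and monocyte and neutrophil genes (6 tested) -0.0015. Without WT-3 the dendritic cell, B cell and monocyte and neutrophil medians were 0.0092, 0.12 and 0.42, and the last was -0.44 without TG-1. The T and NK cell median stayed between -0.43 and -0.16 with a library left out. Endothelial genes (10 tested) had 0.022, red blood cell genes (5 tested) 0.17 and neuron genes (10 tested) 0.039, and 0 genes of any of these lists passed the adjusted p in limma. With a library left out these medians ran from -0.053 to 0.081, from -0.077 to 0.31 and from -0.028 to 0.12, so none of the 3 kept its sign.

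The genes whose profile over the 6 libraries came closest to the mean centred log2 profile of *Cd74*, *H2-Aa*, *H2-Ab1* and *H2-Eb1* were *Twist2*, *Crhr2*, *Tnni3*, *Bnc2* and *St14*, with root mean square differences from 0.12 to 0.15 log2 units. The 4 members themselves lay 0.12 to 0.19 from it. *Twist2*, a helix-loop-helix factor, had 39.5, 40.2 and 66.6 normalized counts in TG against 30.6, 26.8 and 32.8 in WT, and *Bnc2*, a zinc finger protein, had 37.0, 36.0 and 55.2 against 27.5, 27.6 and 31.3. Their likeness to the class II genes is what they were chosen for. Nearest to the class I profile were *Gpr37l1*, *Ctnnb1*, *Stom*, *Mbd3* and *F11r*, at 0.019 to 0.027 log2 units.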

How the data were processed

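Poly(A) RNA from mPFC was sequenced as stranded paired-end libraries. According to the study's methods and the submitters' processing notes, the authors estimated transcript abundance with Salmon 0.9.1 on GRCm38 with GC bias correction, summed it to genes with tximport and divided it by size factors in DESeq2 1.19.11 under R 3.6.0. The deposited signal values are these normalized counts; they are not whole reads, so no counting interval was computed, and the multi-gene assignment of shared reads was Salmon's.

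Identifiers were matched to GENCODE M21 (18231 of 18254 found). Here, log2(normalized count + 1) of 16714 genes (average of 5 or more) was fitted on genotype in limma 3.58.1 (R 4.3.3, eBayes with trend), two-sided, with Benjamini-Hochberg adjustment over all tested genes and a threshold of 0.05. The fit was tested on simulated data. P-values measure the spread between pools of mice. Replicate numbers paired the libraries only in the replicate block and in the differences by number, and the main fit is unpaired. They were taken as pairs since deviations from genotype means correlated at 0.30, 0.33 and 0.62 in the same-numbered pairs. TG-1 with WT-2 (0.27) and TG-2 with WT-1 (0.23) came close, so the numbers mainly set number 3 apart. Shared sequence was counted in 31-base words of GENCODE transcripts, on the same strand.

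The members and lists were chosen with earlier results of these data known. Named were all members, every gene of the other class II pathway list found in the table, up to 4 most abundant genes of other lists, and the 5 genes nearest in profile to each class, except that 1 gene is not reported here. *Rfx5*, *Nfya* and *Nlrc5* were named for their role, and *Tap1*, *Tap2*, *Psmb8* and *Psmb9* for their position. *Ms4a7*, *Clec4n* and *Itgax* were named after their values were seen. Alternatives were other pseudocounts (0.1 and 5), filters, scalings, eBayes options, an empirical null, the replicate block and left-out libraries. Sums of *H2-K1* with *H2-D1* and of *H2-DMb1* with *H2-DMb2*, and the counts of class II members without overlap, the counts by unadjusted p and the lists' directions under other settings, were added after seeing the data.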

Additional observations from a re-analysis of the deposited data

How the results depend on the processing

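No member passed the threshold under any alternative except *H2-Aa* under the empirical null (members called: 1), where 26 genes were called in all. The replicate block called 1 gene over all tested genes and 0 members. Upper quartile scaling, the robust option and the libraries numbered 1 and 2 alone each called 1 gene, and leaving out each library in turn called 0 to 1. The members' log2 fold changes kept their sign except for *B2m*, *H2-K1* and *Ciita*. Leaving out a library in turn gave -0.063 to 0.063 for *B2m*, -0.0028 to 0.16 for *H2-K1* and -0.43 to 0.024 for *Ciita*. The sign of *Ciita*, at -0.21 in the main fit, turned only where TG-3 was left out, and it was 0.031 with the libraries numbered 1 and 2 alone. Class II members above WT without overlap numbered 5 to 6 under each scaling and each left-out library, and 6 with the libraries numbered 1 and 2 alone. Leaving out libraries cannot bring this count below the 5 of the full set, so only the scalings could have lowered it. With fewer libraries more of all tested genes do not overlap in this direction, 5.47% to 8.12% with a library left out and 12.7% with numbers 1 and 2 alone, and without WT-1 this held for 2 of the 3 class I members. Members with an unadjusted p under 0.05 and a higher TG mean numbered 2 to 4 with a library left out, 2 with numbers 1 and 2 alone and 3 with the filter of 50. The class II minus class I difference was 0.34 (without TG-3) to 0.57 (without TG-1) with a library left out and 0.67 with *Cd74*, *H2-Aa*, *H2-Ab1* and *H2-Eb1* alone. With the replicate block it was 0.45, which equals the main value by construction, since each number holds 1 library of each genotype. With a mean of at least 50 as the filter, *H2-Ab1* and *H2-DMb1* were not tested. The block changed no other call. Most class II members lay under 100 normalized counts, and with 3 pools a genotype 95% intervals are wide, as for *H2-DMb1* (0.068 to 1.28), which limits what can be resolved.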
